A study of Mus musculus with 9 samples.

Results

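The 79 mouse genes described here encode matrix metalloproteases (MMPs), ADAMs, ADAMTSs and the tissue inhibitors of metalloproteases (TIMPs). They were chosen by symbol alone, as the rows of the gene table whose name is Mmp, Adam, Adamts or Timp followed by a number, from 25655 genes in all. The set held 23 MMPs, 33 ADAMs, 19 ADAMTSs and 4 TIMPs. RNA sequencing counts were analysed for 3 groups of muscle stem cells (MuSCs), with 3 libraries per group. The sorted MyoD-tdTomato low cells, and likewise the MyoD-tdTomato high cells, were MuSCs of MyoD-KI (MyoD KI/+) mice on a C57BL/6 background, aged 10 to 16 weeks, in which a tdTomato reporter is joined to the end of the MyoD coding sequence. These MuSCs were taken from hindlimb muscle with beads against integrin α7, cultured for 5 days, and parted by FACS (fluorescence-activated sorting) into low and high tdTomato, called low cells and high cells here. QSCs were MuSCs isolated from the leg muscle of male Pax7-YFP (Pax7 YFP/YFP) mice aged 15 to 16 weeks and were not cultured. For culture, muscle had been digested with collagenase D and trypsin. Mice of both sexes were used for the MyoD-KI line, and the sex of those behind the cultured libraries is not given. QSCs thus differ from the cultured cells in genotype, isolation and sequencing depth as well as culture, and may differ in sex and age. The parts of these in a difference from QSCs cannot be told apart. The libraries of a group are called technical replicates in the study's methods, so the p-values measure only the spread between these libraries, which may be technical.

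MMPs, ADAMs and ADAMTSs share a catalytic zinc. MMPs are secreted or membrane-bound and cut matrix proteins. ADAMs sit in the cell membrane and release the outer parts of growth factors, Notch ligands and receptors (shedding), and several lack a working catalytic site. ADAMTSs are secreted and cut proteoglycans such as aggrecan and versican, or trim procollagens. TIMPs block them, each with its own range: TIMP3 is held in the matrix and also blocks ADAM17 and the aggrecan-cutting ADAMTSs. In muscle, these enzymes act on the matrix around the fibre where quiescent MuSCs reside.

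Total counts ranged from 24471782 to 25767904 in low cells, from 24643176 to 26782872 in high cells and from 7514633 to 18077031 in QSCs libraries. QSCs replicate 2 was the shallowest and stood apart. Counts of 1501 chemosensory receptor genes, known mainly from sensory cells, made up 19.53 to 23.68 CPM of the raw library total in low cells. They made up 26.17 to 28.37 in high cells, and 536.3, 2864 and 744.6 in QSCs replicates 1, 2 and 3. Summed MuSC markers were 3530 to 4366, 5309 to 6388 and 7961 to 9822 CPM in the same order of groups, with none of the 12 markers at 0 in all libraries of a group. All other CPM are counts scaled to library size with TMM factors. Markers of other cells were also present, most of all in QSCs: endothelial markers summed to 60.73 to 76.88 CPM in low cells and 24.8 to 27.29 in high cells, against 556.5 to 1050 in QSCs.

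Of the 79 genes, 36 had a count in all 9 libraries and were tested, and 43 had a 0 in some library. *Mmp1b* and *Mmp7* had no count in any library. Low libraries detected 48 to 55 of the genes, high libraries 48 to 49, and QSCs libraries 60 to 65. The families together took 0.193% to 0.214% of all counts in low cells, 0.171% to 0.188% in high cells and 0.188% to 0.251% in QSCs libraries.

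MMPs and ADAMTSs were led by other genes in cultured cells than in QSCs. TPM, which corrects for transcript length, was used to compare genes within a library. Among MMPs, *Mmp14* made up 51.8% ± 2.4 of the family's summed TPM in low cells and 42.7% ± 2.94 in high cells, against 18.8% ± 4 in QSCs (SD, n = 3 libraries). *Mmp2* made up 13.7% ± 0.918 in low cells and 9.93% ± 0.871 in high cells, against 68.8% ± 4.95 in QSCs. The leading MMP was therefore the membrane-bound *Mmp14* in all 6 cultured libraries and the secreted gelatinase *Mmp2* in all 3 QSCs libraries. Among ADAMTSs, *Adamts14* led in all 6 cultured libraries, at 27.2% ± 2.29 in low cells and 31% ± 4.22 in high cells, against 1.52% ± 0.695 in QSCs, where *Adamts1* led at 35.6% ± 3.27. ADAMTS14 trims procollagen, and ADAMTS1 cuts proteoglycans.

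*Timp2* and *Timp1* made up nearly the whole TIMP pool of cultured cells. *Timp3* was 0.701% ± 0.241 of the TIMP pool in low cells and 0.142% ± 0.0356 in high cells, against 32.9% ± 5.18 in QSCs. *Timp1* led *Timp2* in low replicates 2 and 3 only. The ADAMs kept the same leader, *Adam9*, at 29.6% ± 1.52 in low cells, 29.4% ± 0.829 in high cells and 28.1% ± 4.29 in QSCs, although *Adam15* was just above *Adam9* in QSCs replicate 1. These shares are descriptions within each family and were not tested.

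**Figure D1:**
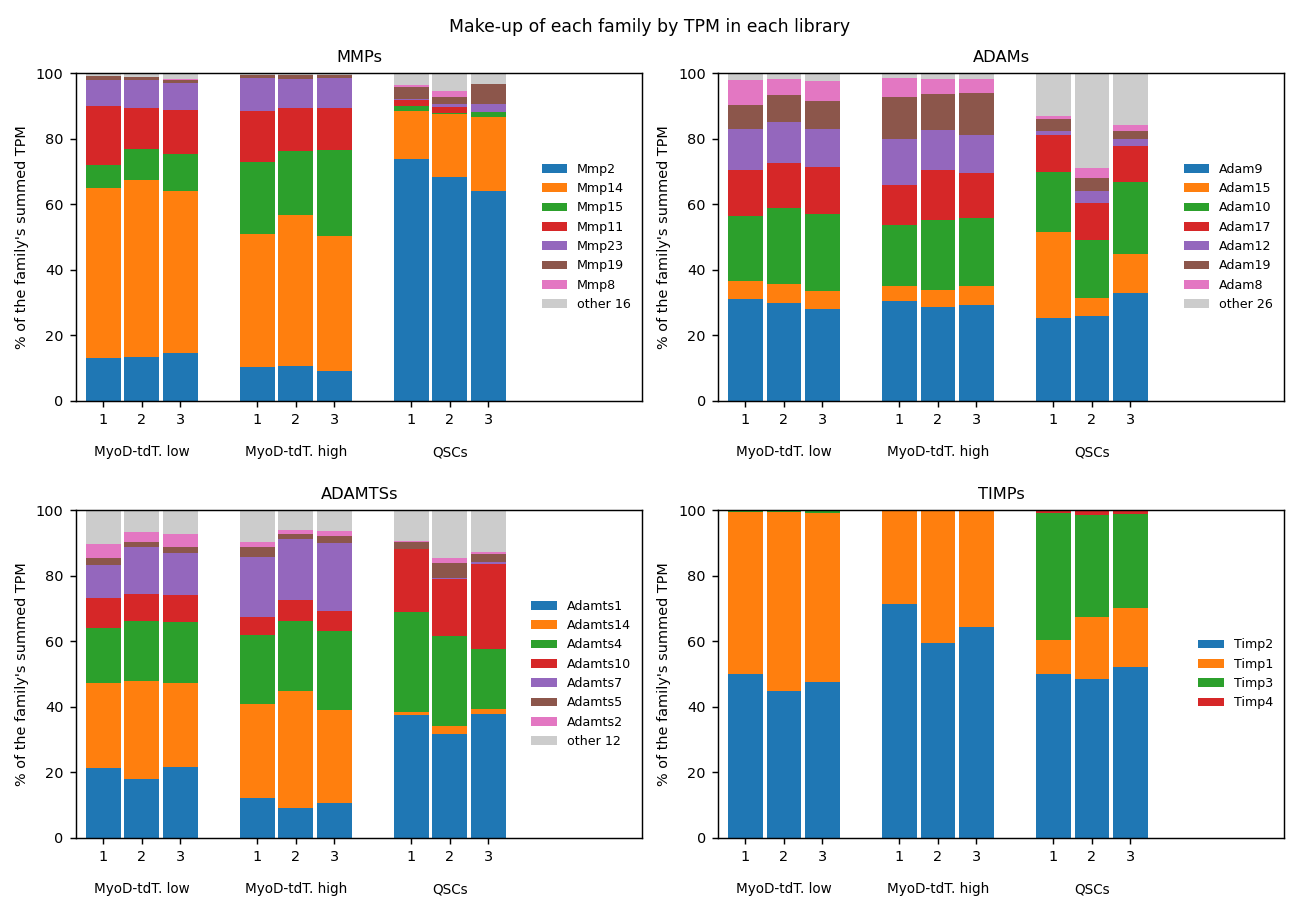
Share of each family's summed TPM (%, vertical axis) taken by its 7 leading genes (all 4 for TIMPs) in each library, with replicates 1 to 3 of MyoD-tdTomato low, MyoD-tdTomato high and QSCs from left to right. *Mmp14* and *Adamts14* take the largest shares in the 6 cultured libraries, *Mmp2* and *Adamts1* in the 3 QSCs libraries, and *Timp3* averages 32.9% of the TIMPs in QSCs.

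In cultured cells against QSCs, most of the tested genes moved: 6 of the 10 tested widely expressed ADAMs rose, while all 7 proteoglycan-cutting ADAMTSs fell. Calls needed a fold change above 1.5 with an adjusted p below 0.01 (edgeR's quasi-likelihood test, Benjamini-Hochberg adjustment over 12614 genes). In low cells, 12 of 36 rose (33.3%) and 16 fell (44.4%), where 22.6% of all genes tested rose and 26.5% fell. In high cells, 11 rose (30.6%) and 16 fell (44.4%), where 24.6% of all genes rose and 26.4% fell. The median log2 fold change of the 36 was -0.94 in low cells and -1.18 in high cells, beside -0.07 and -0.02 over all genes tested. Both comparisons use the same QSCs libraries, and the 11 genes higher and the 16 lower in high cells were also called that way in low cells. Without QSCs replicate 2, the counts were 13 higher and 14 lower in low cells, and 11 and 16 in high cells. Of all 12804 genes then tested, 3097 and 3548 were called in low cells, and 3397 and 3507 in high cells. With the chemosensory rate subtracted, 11 were lower in low cells, where *Adam11*, *Adamts12*, *Adamts17*, *Adamts9* and *Mmp16* lost their calls, and 13 in high cells, where *Adam11*, *Adamts17* and *Mmp16* lost theirs. Of all 12614 genes, 3026 and 3005 were then lower. In bulk libraries, fewer cells of a type and less RNA per cell cannot be told apart.

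**Figure D2:**
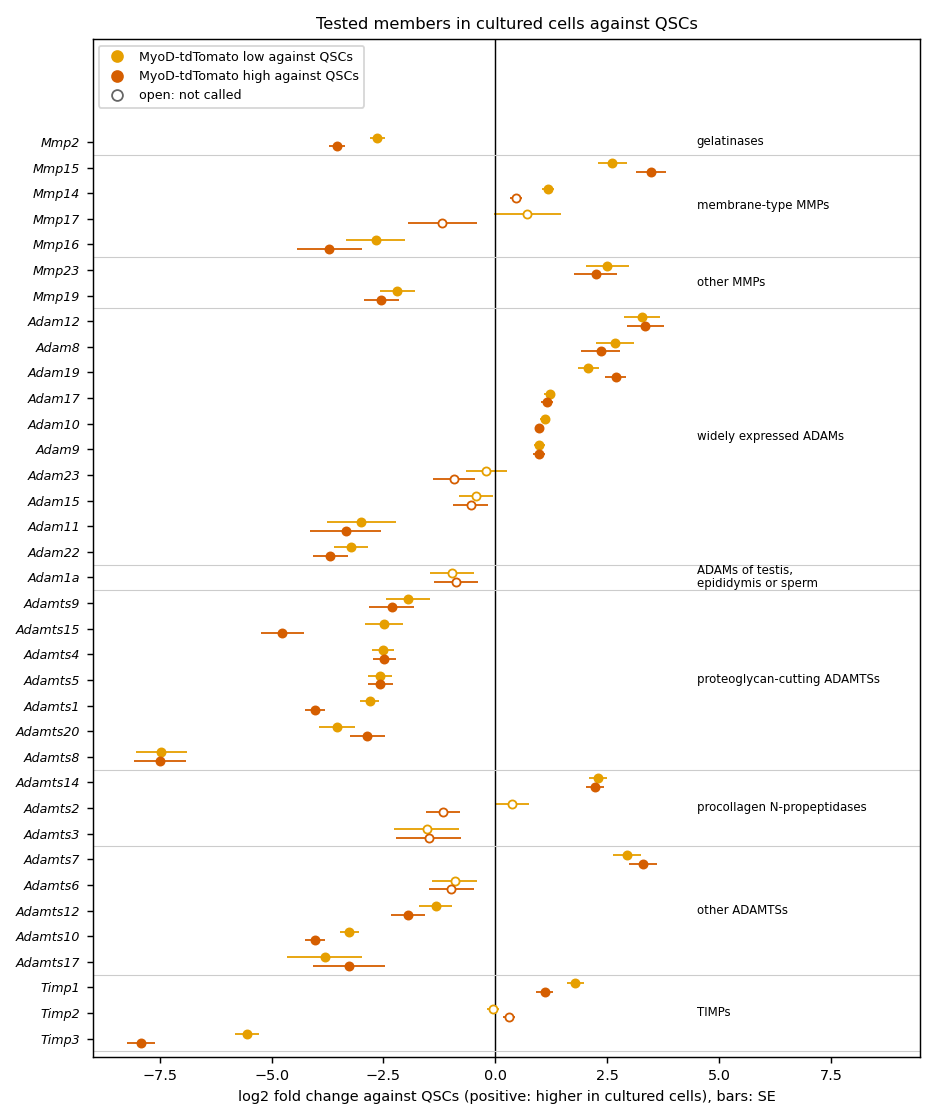
Log2 fold change (horizontal axis, bars SE) of the 36 tested genes in MyoD-tdTomato low (yellow) and MyoD-tdTomato high cells (dark orange) against QSCs, grouped by role; open points were not called. All 7 proteoglycan-cutting ADAMTSs lie left of 0, and 6 of the 10 widely expressed ADAMs are called right of 0.

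The TIMPs went separate ways. *Timp1* (X:20736405-20740974, GRCm39), a secreted inhibitor of most MMPs, had 115.8, 113.4 and 102.1 CPM in low cells and 58.75, 79.09 and 67.93 in high cells, against 23.28, 38.23 and 34.77 in QSCs. The 3 groups did not overlap. It rose by a log2 of 1.79 ± 0.187 (SE; adjusted p = 1.29e-05, edgeR) in low cells and 1.10 ± 0.185 (adjusted p = 0.000352) in high cells. *Timp1* lies within *Syn1* on the other strand, a gene with 5 to 372 counts, and the strand setting of the counting is not given in the sources used here.

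*Timp3* (10:86136236-86185370) fell in both cultured groups. It had 6.14, 7.833 and 10.5 CPM in low cells and 1.746, 1.875 and 1.092 in high cells, against 490.4, 347.4 and 314.2 in QSCs. Every QSCs library was above every cultured library, and every low library above every high library. The level was 47.0-fold lower in low cells (log2 -5.56 ± 0.269, adjusted p = 6.75e-08, edgeR) and 243-fold lower in high cells (log2 -7.92 ± 0.31, adjusted p = 1.57e-08) than in QSCs. *Syn3*, which overlaps it on the other strand, never exceeded 30 counts.

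*Timp4*, the least widespread inhibitor, was near absent after culture. It had 2, 3 and 2 counts in low cells and 8, 0 and 3 in high libraries, against 206, 150 and 178 in QSCs. Because of the 0 it was not among the 36 tested genes. From summed counts, QSCs held 195 times the low-cell level (95% exact binomial interval 94.2 to 488) and 115 times the high-cell level (63.8 to 232), with intervals that cover counting error only. In the fit without a filter on low counts it was lower in both (log2 -7.43 ± 0.748, adjusted p = 2e-06, and -6.69 ± 0.712, adjusted p = 3e-06, edgeR); there, 34.7% of 20519 genes were called in either direction for low cells and 36.2% for high cells against QSCs. *Timp4* lies within *Syn2* on the other strand, which had 12 to 168 counts per library, and which reached its highest count in a high library.

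*Timp2*, the inhibitor that also bridges MMP14 and pro-MMP2 at the cell surface, was abundant everywhere. It had 512, 407.8 and 411.8 CPM in low cells and 652.1, 509.7 and 538.5 in high cells, against 500.3, 428.8 and 447.2 in QSCs. The low and QSCs libraries overlapped, and neither cultured group passed the test (log2 -0.05 ± 0.132, adjusted p = 0.766, and 0.30 ± 0.132, adjusted p = 0.0627, edgeR). On TPM, limma called *Timp2* higher in low (log2 0.74) and high cells (0.96), but there the median of all genes tested also shifted by 0.67 and 0.59 against QSCs.

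**Figure D3:**
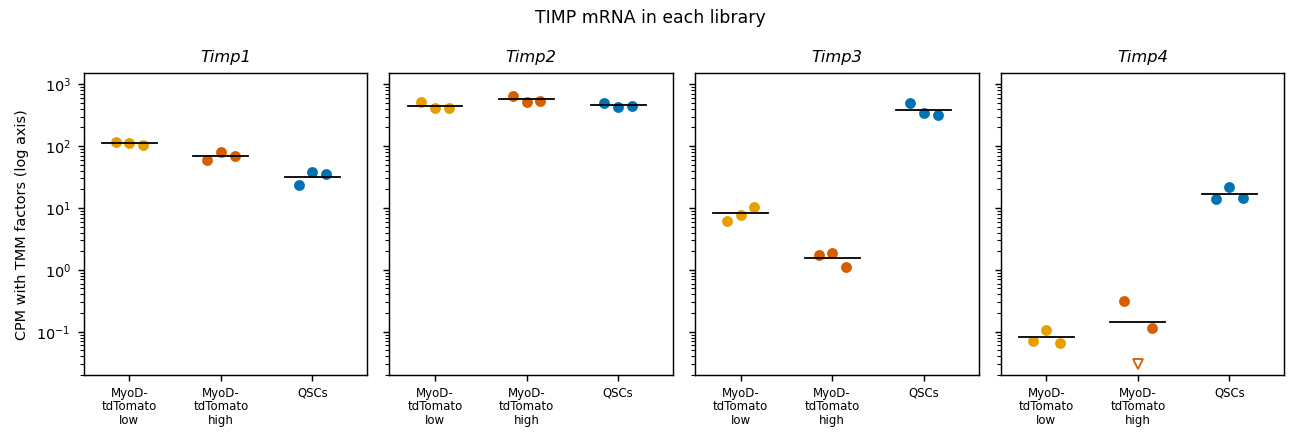
CPM of the 4 TIMP genes (vertical log axis) in each library of MyoD-tdTomato low, MyoD-tdTomato high and QSCs; lines are group means and the open triangle marks a library with 0 counts of *Timp4*. *Timp1* is highest in low cells, *Timp3* and *Timp4* are highest in QSCs, and *Timp2* lies between 407.8 and 652.1 CPM in all groups.

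*Mmp2* fell in culture, while *Mmp14* rose in low cells. *Mmp2* (8:93553919-93580048), the gelatinase that cuts denatured and basement membrane collagen, had 36.38, 30.94 and 36.71 CPM in low cells and 18.51, 21.11 and 16.22 in high cells, against 249.8, 225.7 and 172.9 in QSCs. The groups did not overlap, and the level was 6.23-fold lower in low cells (log2 -2.64 ± 0.164, adjusted p = 3.09e-07, edgeR) and 11.6-fold lower in high cells (-3.54 ± 0.172, adjusted p = 5.72e-08). *Mmp14* (14:54669069-54682821) encodes the membrane-bound MMP that activates pro-MMP2, and is a gene the study itself named from these libraries, so it is not independent evidence. It had 215.6, 184.9 and 181.5 CPM in low cells and 109.1, 135.9 and 111 in high cells, against 73.23, 93.25 and 90.39 in QSCs. It rose in low cells (log2 1.18 ± 0.136, adjusted p = 2.55e-05), and in high cells it was above all QSCs libraries but under the fold threshold (0.47 ± 0.134, adjusted p = 0.00963).

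*Mmp15*, a second membrane-type MMP, had 32.32, 36.62 and 47.07 CPM in low cells and 66.24, 65.48 and 79.59 in high cells, against 8.596, 2.462 and 7.086 in QSCs. Of the tested MMPs it had the largest rise, by a log2 of 2.61 ± 0.323 (adjusted p = 4.38e-05) and 3.48 ± 0.33 (adjusted p = 5.86e-06). *Mmp23*, which has an unusual cysteine-rich domain, also rose, by a log2 of 2.50 ± 0.482 (adjusted p = 0.000973) and 2.24 ± 0.48 (adjusted p = 0.00186). Its counts were 300, 253 and 282 in low cells and 215, 232 and 199 in high libraries, against 8, 10 and 38 in QSCs. *Mmp19* went the other way (log2 -2.19 ± 0.386, adjusted p = 0.000546, and -2.54 ± 0.393, adjusted p = 0.000202). The counting could not separate *Mmp19* from the partly overlapping *Tmem198b* if it ignored strand.

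*Mmp17*, a membrane-type MMP held by a lipid anchor, passed the test in neither comparison with QSCs. It had 3.247, 3.846 and 7.087 CPM in low cells, 1.242, 1.666 and 0.8579 in high cells, and 3.113, 5.502 and 0.2472 in QSCs, so that QSCs overlapped with both cultured groups. *Mmp16*, chosen after its values were seen, was called lower in both, from 41 counts in QSCs in all. That count is no higher than the 45.37 expected from the chemosensory receptor rate described below, and the call was lost when this rate was subtracted.

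*Mmp11* (10:75759056-75772330), stromelysin-3, is activated inside the cell by furin. It had 1157, 665 and 820 counts in low cells and 586, 602 and 484 in high libraries, against 67, 33 and 0 in QSCs. All cultured libraries were above all QSCs libraries. With the 0 it was not among the 36 either, and without the filter it was higher in low cells (log2 3.50 ± 0.808, adjusted p = 0.00711, edgeR), while the high-cell value of 2.95 ± 0.798 had an adjusted p of 0.0146. *Mmp11* partly overlaps *Chchd10* on the other strand, which had 88 to 1466 counts.

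The other gelatinase and the classical secreted MMPs were at or near 0 in cultured cells. *Mmp9*, known from neutrophils and macrophages, had 2, 8 and 18 counts in low cells and 4, 4 and 0 in high libraries, against 78, 32 and 0 in QSCs. Beside it, summed neutrophil markers were 0.03528 to 0.3176 CPM in low cells, 0.234 to 0.3472 in high cells and 11.29 to 53.14 in QSCs, and their part in *Mmp9* was not tested. On chromosome 9, 10 MMP genes lie near each other (9:7272514-7699586), among them the collagenases *Mmp8* and *Mmp13* and the stromelysins *Mmp3* and *Mmp10*. Their counts summed over all 10 genes came to 2 to 8 in low cells, 0 to 4 in high cells and 43 to 49 in QSCs libraries. Up to 34 of the QSCs counts came from *Mmp8*, the neutrophil collagenase, which had 0, 0 and 4 counts in low cells, 0, 0 and 1 in high cells, and 23, 34 and 2 in QSCs.

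Genes of this cluster are known targets of AP-1, the transcription factor of FOS and JUN proteins, and the AP-1 heptamer TGAGTCA, which reads TGACTCA on the other strand, was searched in RefSeq promoter windows (GRCm38.p6, 250 bases before to 50 after each start, both strands). A window was found for 49 of the 79 genes. The heptamer was in 10 of these 49 (20.4%), beside 5.95% of all 27025 genes of the promoter table. Apart from *Adam19*, *Adam1b* and *Adam29*, all of these 10 were neighbours in the chromosome 9 cluster. The share of 20.4% thus rests mainly on that cluster and does not describe the families as a whole. Of the 27 genes with a window and a 0 in some library 9 held it, and of the 22 tested genes only *Adam19* did. This split was not computed over all genes. Stretches of 4 windows are shown with the heptamer in capitals, to set 3 cluster genes with at most 15 counts in any library beside *Adam19*, which rose in culture. The build of these windows differs from that of the gene table. A match is a description of letters and not evidence of binding.
Mmp13 promoter, chr9:7272470-7272494, plus strand: ccaaagtggTGACTCAtcactatca
Mmp3 promoter, chr9:7445767-7445791, plus strand: aagcaattaTGAGTCAgttttcggg
Mmp10 promoter, chr9:7502270-7502294, plus strand: gcacccatgTGAGTCAtgcttagtg
Adam19 promoter, chr11:46055844-46055868, plus strand: tccttcaccTGAGTCAgcgatgctc

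The E-box CAGCTG, the hexamer to which MYOD binds with its partners and which reads the same on both strands, was in the windows of 9 of the 49 genes (18.4%), beside 18.3% of all genes. It was in 7 of the 22 tested genes and in 2 of the 27 with a 0, a split that was not computed over all genes. The windows of *Timp4* and *Timp2*, the 2 TIMPs that held it, are shown.
Timp4 promoter, chr6:115252295-115252318, minus strand: cacttcctgCAGCTGaaagaaacc
Timp2 promoter, chr11:118355585-118355608, minus strand: cgagtcgcaCAGCTGgccgttttc

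All 7 proteoglycan-cutting ADAMTSs were lower in both cultured groups than in QSCs. *Adamts1* (16:85590715-85600001) had 57.48, 42.9 and 60.81 CPM in low cells and 25.42, 21 and 22.62 in high cells, against 486.9, 271.9 and 367.7 in QSCs, with no overlap between groups. It was 6.99-fold lower in low cells (log2 -2.81 ± 0.214, adjusted p = 1.32e-06, edgeR) and 16.3-fold lower in high cells (-4.03 ± 0.227, adjusted p = 1.46e-07). Its neighbour *Adamts5* (16:85653061-85698716), 53059 bases away with no other gene of the table between them, had 12.14, 7.586 and 12.1 CPM in low cells and 13.81, 7.846 and 10.22 in high cells, against 57.94, 78.77 and 52.65 in QSCs. *Adamts5* was 5.93-fold lower in both cultured groups (log2 -2.57 ± 0.271 in each). The cultured groups overlapped for *Adamts5* and not for *Adamts1*.

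*Adamts8* and *Adamts15* are neighbours too, on chromosome 9, 20109 bases apart. *Adamts8* (9:30853858-30875134) was the ADAMTS with the largest fall, with 1, 3 and 6 counts in low cells and 2, 1 and 6 in high libraries, against 365, 148 and 214 in QSCs (log2 -7.46 ± 0.575, adjusted p = 1.41e-06, and -7.49 ± 0.58, adjusted p = 1.3e-06). *Adamts15* (9:30810451-30833748) had 9.528, 2.47 and 6.051 CPM in low cells and 1.397, 1.007 and 1.326 in high cells, against 23.96, 35.04 and 42.35 in QSCs. It was 5.61-fold lower in low cells (log2 -2.49 ± 0.426, adjusted p = 0.00044) and 27.1-fold lower in high cells (-4.76 ± 0.484, adjusted p = 9.6e-06). *Adamts8* was close to 0 in both cultured groups, whereas *Adamts15* lay between 2.47 and 9.528 CPM in low cells.

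*Adamts4*, an aggrecan-cutting enzyme, had 42.91, 41.81 and 49.61 CPM in low cells and 41.44, 47.67 and 48.75 in high cells, against 376, 221.8 and 169.6 in QSCs (log2 -2.52 ± 0.251, adjusted p = 9.25e-06, and -2.48 ± 0.25, adjusted p = 9.24e-06). The cultured groups overlapped and QSCs lay above both. *Adamts20*, known in mice for versican cleavage in pigment cell precursors, had 4.235, 2.505 and 4.145 CPM in low cells and 8.576, 3.888 and 4.914 in high cells, against 24.37, 48.22 and 53.56 in QSCs (log2 -3.53 ± 0.401, adjusted p = 2.35e-05, and -2.86 ± 0.388, adjusted p = 7.98e-05). *Adamts9*, chosen after its values were seen, was called lower in both, but its QSCs values of 60.64, 12.89 and 22.82 CPM differed widely and its low-cell call was lost without any low replicate, without QSCs replicate 1 (log2 -1.10) and with the chemosensory rate subtracted. Its high-cell call was lost without high replicates 2 or 3. Both calls of *Adamts9* were lost with limma on TPM, and the low-cell call also with no filter and with only the 2 groups.

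Of the 3 procollagen-trimming ADAMTSs, *Adamts14* rose and the others did not pass the test. *Adamts14* (10:61032891-61109217) had 71.85, 73.07 and 74.08 CPM in low cells and 61.16, 85.79 and 62.01 in high cells, against 11.03, 19.26 and 14.83 in QSCs. It rose 4.92-fold (log2 2.30 ± 0.208, adjusted p = 4.65e-06) and 4.69-fold (2.23 ± 0.208, adjusted p = 5.06e-06). *Adamts2* had 20.22, 12.88 and 19.79 CPM in low cells and 6.287, 5.694 and 6.045 in high cells, against 8.799, 23.75 and 8.734 in QSCs. It passed the test in neither cultured group (log2 0.38 ± 0.374, adjusted p = 0.39, and -1.17 ± 0.383, adjusted p = 0.0193), and QSCs replicate 2 held the highest value of all 9 libraries: without it, *Adamts2* was called higher in low cells (log2 1.01). *Adamts3* did not pass the test in either comparison, at 0.2328 to 2.64 CPM over all libraries.

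Of the other ADAMTSs, *Adamts7*, which cuts the matrix protein COMP, rose. It had 30.81, 39.16 and 40.42 CPM in low cells and 42.96, 48.92 and 49.84 in high cells, against 2.775, 4.054 and 7.498 in QSCs (log2 2.94 ± 0.304, adjusted p = 1.19e-05, and 3.30 ± 0.307, adjusted p = 4.91e-06). *Tbc1d2b*, with 239 to 754 counts, partly overlaps it on the other strand. *Adamts10*, which acts on fibrillin microfibrils, fell. It had 29.64, 23.25 and 27.51 CPM in low cells and 13.7, 17.6 and 15.75 in high cells, against 296.4, 174.9 and 300.2 in QSCs (log2 -3.26 ± 0.215, adjusted p = 4.62e-07, and -4.04 ± 0.224, adjusted p = 1.33e-07). *Adamts12* was called lower in both (log2 -1.33 ± 0.368, adjusted p = 0.00869, and -1.96 ± 0.376, adjusted p = 0.000911). The low-cell call of *Adamts12* was lost without replicates 2 or 3 of low or high cells, or replicates 1 or 2 of QSCs. The log2 values were then -1.32 to -1.11. That call was also lost with the other filters, only the 2 groups, the block within them, and the chemosensory rate subtracted. Both calls of *Adamts12* were lost with limma on TPM.

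Of the 10 tested widely expressed ADAMs, 6 were higher and 2 lower in each cultured group than in QSCs. *Adam12*, meltrin alpha, which is known from regenerating muscle and cell fusion, had the largest rise. It had 122.6, 116.2 and 106.3 CPM in low cells and 148.5, 108.7 and 104.4 in high cells, against 5.415, 22.88 and 9.064 in QSCs. The rise was 9.72-fold in low cells (log2 3.28 ± 0.409, adjusted p = 4.63e-05, edgeR) and 10.2-fold in high cells (3.35 ± 0.41, adjusted p = 3.71e-05).

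The sheddases *Adam10*, which cuts Notch receptors and their ligands, and *Adam17*, which releases TNF and EGF receptor ligands, both rose. *Adam10* had 114.1, 125 and 124.7 CPM in low cells and 114.9, 110.3 and 108.1 in high cells, against 52.66, 60.82 and 55.54 in QSCs (log2 1.11 ± 0.102, adjusted p = 5.14e-06, and 0.98 ± 0.102, adjusted p = 1.11e-05). *Adam17* had 80.95, 75.22 and 78.16 CPM in low cells and 76.25, 78.6 and 71.75 in high cells, against 33.1, 39.67 and 28.76 in QSCs (log2 1.21 ± 0.132, adjusted p = 1.71e-05, and 1.16 ± 0.132, adjusted p = 2.09e-05). *Iah1*, with 70 to 405 counts, partly overlaps *Adam17* on the other strand. *Adam9*, a sheddase expressed in most tissues, rose by a log2 of 0.99 ± 0.13 (adjusted p = 7.03e-05) and 0.98 ± 0.13 (adjusted p = 6.86e-05). *Adam8*, better known from leukocytes, rose by a log2 of 2.67 ± 0.43 (adjusted p = 0.000293) and 2.35 ± 0.428 (adjusted p = 0.000629), from 28, 49 and 34 counts in QSCs. The sixth was *Adam19*, meltrin beta, named here because of its promoter and after its values were seen, with a log2 of 2.08 ± 0.234 and 2.69 ± 0.238.

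*Adam22*, an ADAM with no working catalytic site known as a receptor in the nervous system, fell in both cultured groups. It had 1.659, 1.729 and 1.471 CPM in low cells and 1.591, 0.6249 and 1.326 in high cells, against 14.69, 18.39 and 12.69 in QSCs (log2 -3.23 ± 0.376, adjusted p = 2.82e-05, and -3.69 ± 0.386, adjusted p = 1.2e-05). *Adam11*, also without catalytic activity, was called lower in both, but 99 of its 169 QSCs counts came from replicate 2, and without that library its log2 was -1.68 in low and -2.02 in high cells. The low-cell call was lost without that library, any low replicate or high replicate 3, and the high-cell call without any high replicate. Both were lost with the chemosensory rate subtracted, with limma on TPM and with the block within the 2 groups, and the low-cell call also with the block over all libraries and with only the 2 groups. *Adam33* had 0, 0 and 2 counts in low cells and 0, 0 and 1 in high libraries, against 39, 39 and 31 in QSCs. *Adam33* is named because of its QSCs counts, which were 3.46 times those given by the chemosensory receptor rate described below. Schwann cell markers summed to 12.17 to 23.44 CPM in low cells, 6.442 to 7.325 in high cells and 111.1 to 191.2 in QSCs, and their part in *Adam22* and *Adam11* was not tested.

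Summed markers of most other cell types were higher in QSCs, as were many of the genes above. All 11 tested endothelial markers were lower in both cultured groups than in QSCs, and fibroblast markers summed to 1068 to 1694 CPM in low cells, 856.7 to 998.6 in high cells and 3350 to 4077 in QSCs. Macrophage and myeloid markers summed to 31.05 to 55.15, 7.8 to 15.36 and 113.8 to 176.4 CPM, and tenocyte markers to 80.2 to 82.4, 129.4 to 136.7 and 440.9 to 477.9 CPM, in the same order. Pericyte markers summed to 676.3 to 1406, 1431 to 2600 and 1850 to 2050 CPM. Of all the marker lists, genes at 0 in every library of a group were *Cldn5* and *Ptprc* in high cells, and 5 of the 10 neutrophil markers in low and 4 in high cells. Endothelial cells and fibroblasts are known to express *Timp3*, *Adamts1* and *Mmp2*, and the part of such cells in these falls was not tested.

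The ADAMs known from testis, epididymis or sperm were set beside the chemosensory receptor rate, that is, the counts of the receptor genes per unit of transcript length in each library. Without *Adam1a*, these 20 ADAMs had 17 to 41 counts per cultured library, and 137, 225 and 176 counts in QSCs replicates 1, 2 and 3. The receptor rate alone would give 97.25, 215.9 and 117.7 counts in the same QSCs libraries, and 4.795 to 7.232 in the cultured ones. *Adam1b* and *Adam30* had the most, with 8, 54 and 35 counts and 10, 21 and 45 counts in QSCs. *Adam1a*, the only tested gene of this group, had 91, 78 and 115 counts in low cells, 93, 104 and 82 in high cells, and 89, 78 and 27 in QSCs, and did not pass the test.

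Of the 36 tested genes, 20 had over 10 times the QSCs count given by the receptor rate and 4 had under 2 times (*Mmp16*, *Mmp17*, *Adamts17* and *Adamts3*). *Timp2*, *Timp3*, *Adamts1* and *Mmp2* were 520, 350, 339 and 307 times above it. Of 41 genes with a 0 in some library and a transcript length, 31 were under 2 times, and only *Timp4* was over 10 times, at 11.6. *Mmp8*, the highest of the chromosome 9 MMPs, was at 3.13 times, and *Adamts17* at 1.75 times.

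**Figure D4:**
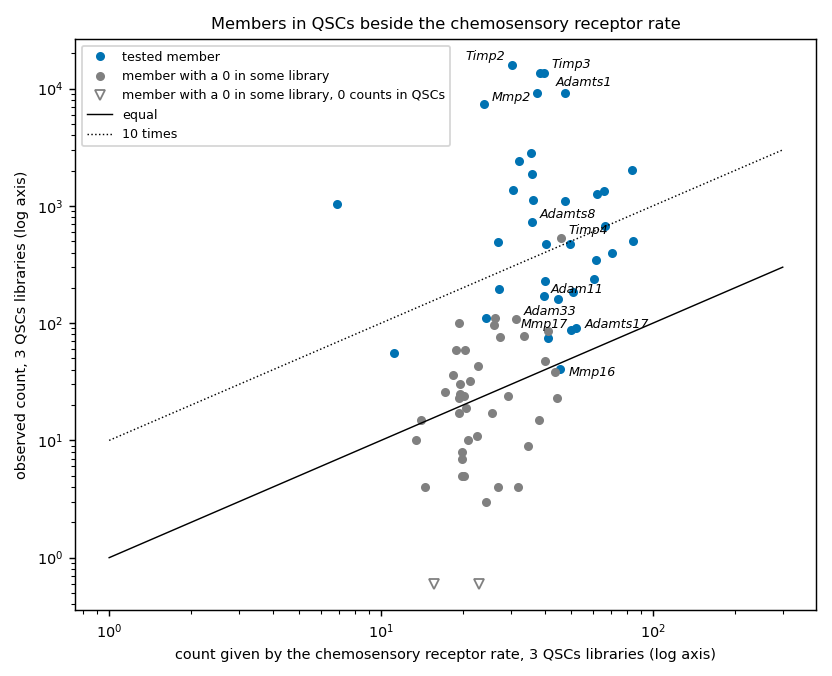
Observed counts of each gene summed over the 3 QSCs libraries (vertical log axis) against the count that the chemosensory receptor rate gives for a transcript of its length (horizontal log axis); the solid line marks equality and the dotted line 10 times. *Timp2*, *Timp3*, *Adamts1* and *Mmp2* lie over 300 times above equality, while *Mmp16* lies just under it.

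Between the 2 sorted groups, the genes that moved were all higher in low cells. Of the 36 tested, 5 rose (13.9%), where 1.23% of all genes tested were higher, and 0 fell, where 3.88% of all genes were lower. The median log2 fold change of the 36 was 0.19, beside -0.0007 over all genes. The 5 were *Timp3*, *Adamts15*, *Adamts1*, *Mmp2* and *Mmp14*. For each of them all low libraries were above all high libraries, a separation that was not counted over all genes tested. The first 4 were lower in both cultured groups than in QSCs, in comparisons that share these libraries.

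*Timp3* had the largest difference, 5.16-fold (log2 2.37 ± 0.276, adjusted p = 0.00131, edgeR), on the levels given above of 6.14 to 10.5 against 1.092 to 1.875 CPM. It was the only gene of the 5 that stayed called whichever of the 9 libraries was left out. *Adamts15* was 4.83-fold higher (log2 2.27 ± 0.451, adjusted p = 0.00905), with low-cell values from 2.47 to 9.528 CPM. Its call was lost without low replicates 1 or 3, without any high replicate and without any QSCs replicate, at log2 values of 1.78 to 2.38.

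*Adamts1* was 2.34-fold higher (log2 1.22 ± 0.206, adjusted p = 0.00425), *Mmp2* 1.86-fold (0.90 ± 0.159, adjusted p = 0.00528) and *Mmp14* 1.63-fold (0.71 ± 0.133, adjusted p = 0.00695). The *Adamts1* call was lost without low replicates 1 or 3 or any high replicate, at 1.13 to 1.31, and the *Mmp2* call without any low replicate or high replicates 1 or 3, at 0.81 to 0.97. The *Mmp14* call was lost without any low replicate, high replicates 1 or 3 or QSCs replicate 3, at 0.63 to 0.76. The direction was the same each time.

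Libraries of the same number in the 2 cultured groups deviated together, so the replicate number was also used as a block. Within the cultured libraries alone this called 11 genes higher and 1 lower, where 15.1% of all genes tested were called in either direction. All 5 stayed called, with *Timp3* at a log2 of 2.37 ± 0.253 (adjusted p = 2.21e-05, edgeR) and *Mmp14* at 0.74 ± 0.0923 (adjusted p = 0.000128). *Adamts2* (1.56 ± 0.135, adjusted p = 2.26e-06), *Mmp17* (1.87 ± 0.331, adjusted p = 0.00108), *Adamts10* (0.80 ± 0.126, adjusted p = 0.00044), *Timp1* (0.72 ± 0.0879, adjusted p = 6.68e-05), *Adamts12* (0.66 ± 0.14, adjusted p = 0.0023) and *Adam23* (0.74 ± 0.193, adjusted p = 0.00858) were called higher in addition. *Mmp15* was called lower (-0.85 ± 0.0748, adjusted p = 2.7e-06). With the block over all 9 libraries, only *Timp3*, *Adamts1* and *Mmp2* were called, and *Adamts15* and *Mmp14* had adjusted p of 0.015 and 0.011. Of all genes tested, 147 were then higher and 507 lower.

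Without the block, *Adamts2* stood at a log2 of 1.55 ± 0.378 (adjusted p = 0.0241, edgeR) and *Timp1* at 0.69 ± 0.179 (adjusted p = 0.0319). *Adamts10* stood at 0.77 ± 0.203 (adjusted p = 0.0337) and *Mmp15* at -0.86 ± 0.288 (adjusted p = 0.0864). None of these was called. Their low and high libraries did not overlap, but this was not counted over all genes tested. Among the widely expressed ADAMs, the values were *Adam9* 0.01 ± 0.128, *Adam17* 0.05 ± 0.128, *Adam12* -0.07 ± 0.356 and *Adam10* 0.13 ± 0.0999, with adjusted p of 0.521 to 0.989. Of the other tested ones, none passed the test either, and values ran from -0.61 ± 0.216 (adjusted p = 0.108) for *Adam19* to 0.72 for *Adam23*. *Adamts14*, *Adamts4* and *Adamts5* differed by less than the SE, at 0.07 ± 0.191, -0.04 ± 0.239 and 0.00 ± 0.261.

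**Figure D5:**
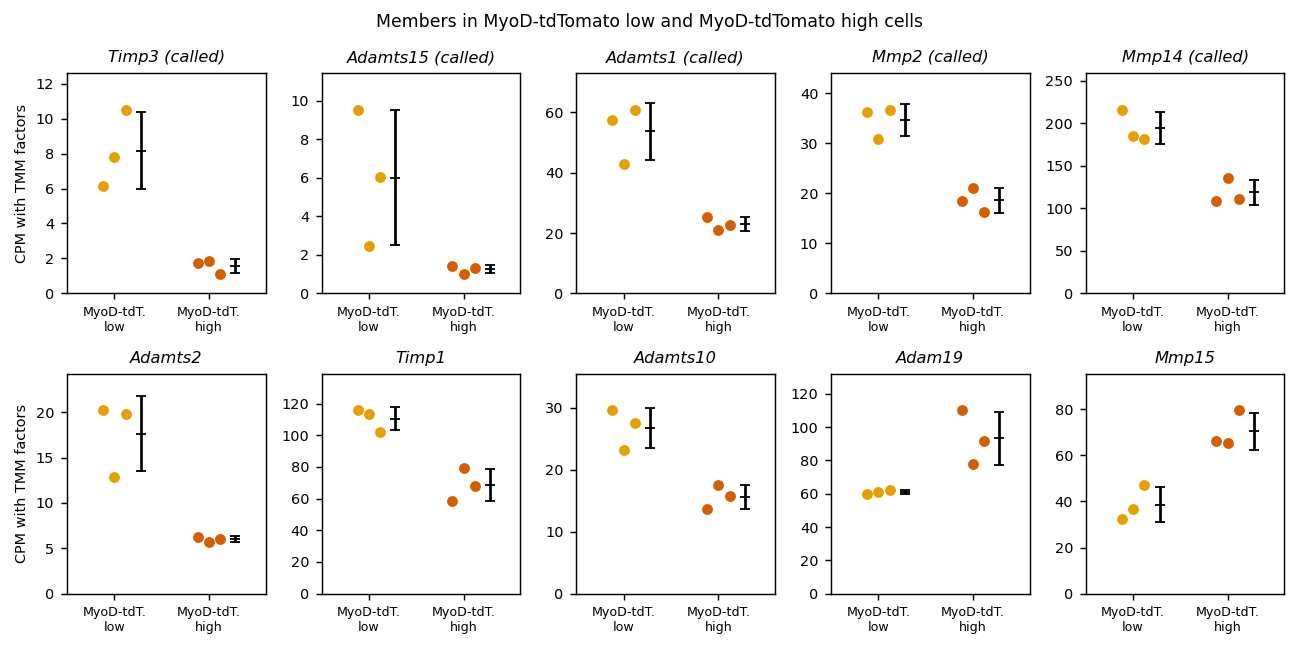
CPM (vertical axis, from 0) of 10 genes in each MyoD-tdTomato low (left) and MyoD-tdTomato high library (right); the black mark and bar beside the points are the mean and SD of 3 libraries. For the 5 called genes of the top row every low library is above every high library; *Adam19* and *Mmp15* lie the other way.

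Markers of other cells and of muscle also differed here. Of 11 tested endothelial markers 7 were higher in low cells, as were 2 of 8 fibroblast markers (*Col1a1* and *Col1a2*), 3 of 11 myeloid markers (*C1qa*, *C1qc* and *Lyz2*) and 1 of 3 Schwann cell markers (*Sox10*), with 0 lower in each list. Of 8 tested pericyte markers, *Notch3* and *Pdgfrb* were higher and *Abcc9* and *Acta2* lower, and 0 of 4 tenocyte markers were called. *Notch3* is not particular to pericytes, as the study lists it among genes of MuSC quiescence. All 10 markers of committed and differentiating muscle were lower in low cells, where they summed to 783.7 to 2355 CPM, against 8423 to 16700 in high cells. The part of these differences in *Timp3*, *Adamts1*, *Adamts15* and *Mmp2* was not tested.

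Other genes of the pathway were taken from 4 lists picked for known function, and their counts stand beside the shares of all genes given above: 1.23% higher and 3.88% lower in low than in high cells, 22.6% and 26.5% in low cells against QSCs, and 24.6% and 26.4% in high cells against QSCs. Under the other settings, 21 to 817 of all genes were higher in low than in high cells and 87 to 1089 lower. Of 28 tested activators and other inhibitors of these proteases, 3 were higher (10.7%) and 2 lower (7.14%) in low cells than in high cells. The 2 lower calls were lost without any low or high replicate, without QSCs replicate 1 and in most other settings. The count of 3 higher fell to 1 without low replicates 1 or 3 or high replicates 1 or 3, and other settings gave 2 to 10. The 2 tetraspanins *Tspan14* and *Tspan33*, which escort ADAM10 to the cell surface, were lower in low cells (-0.79 ± 0.161, adjusted p = 0.00981, and -2.23 ± 0.449, adjusted p = 0.00955), calls lost without any low or high replicate or QSCs replicate 1. Against QSCs, 10 rose (35.7%) and 9 fell (32.1%) in low cells, and 9 rose and 10 fell in high cells. *Lrp1*, the receptor that takes up TIMP3 and several MMPs and ADAMTSs, averaged 1372 ± 124 CPM in low cells and 1005 ± 166 in high cells, against 559 ± 82 in QSCs (log2 1.29 ± 0.153, adjusted p = 3.15e-05, and 0.84 ± 0.151, adjusted p = 0.000571). *Bsg*, an inducer of MMPs, rose as well (0.64 ± 0.12 and 0.97 ± 0.12). *Plau*, the urokinase plasminogen activator, fell in low cells (-1.49 ± 0.141, adjusted p = 6.4e-06, edgeR) and in high cells (-1.80 ± 0.142, adjusted p = 1.53e-06).

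Among 21 tested matrix substrates, 5 were higher (23.8%) and 0 lower in low cells than in high cells. The count of 5 fell to 2 without low replicate 3 or high replicate 3 and to 3 without low replicate 1 or high replicate 2, and other settings gave 4 to 13. *Fn1*, fibronectin, averaged 402 ± 26.9 CPM in low cells and 188 ± 17.9 in high cells (log2 1.10 ± 0.129, adjusted p = 0.00131), *Fbn1*, fibrillin, differed by 0.89 ± 0.139 (adjusted p = 0.00313) and *Col1a2*, a chain of type I collagen, by 2.07 ± 0.41 (adjusted p = 0.00897). *Fn1* and *Col4a2* are genes the study also named from these libraries, so their values are not independent evidence. The *Fbn1* and *Col1a2* calls were lost without low replicates 1 or 3, among others, at 0.79 and 1.56 without low replicate 1. Against QSCs, 7 substrates rose (33.3%) and 4 fell (19%) in low cells, and 5 rose (23.8%) and 10 fell (47.6%) in high cells. *Lamc1*, a laminin chain of the basement membrane, fell in both (-0.80 ± 0.1, adjusted p = 4.73e-05, and -1.13 ± 0.101, adjusted p = 3.56e-06). *Col4a2* rose in low cells (0.62 ± 0.164, adjusted p = 0.00668), and *Col4a1* (-0.65 ± 0.153, adjusted p = 0.00335) and *Col3a1* (-0.83 ± 0.127, adjusted p = 0.000194) fell in high cells.

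Of 28 tested surface proteins shed by ADAMs, 3 were higher (10.7%) and 2 lower (7.14%) in low cells than in high cells, among them *Notch3* (1.12 ± 0.224, adjusted p = 0.00953), higher, and *Ncam1* (-1.14 ± 0.143, adjusted p = 0.00149) and the Notch ligand *Dll1* (-1.41 ± 0.201, adjusted p = 0.00218), lower. Both counts fell to 1 without low replicate 3 or high replicates 1 or 3, and other settings gave 2 to 11 higher and 1 to 2 lower. *Notch3* kept its call without low replicate 2 but lost it without any other library, at 0.80 without low replicate 1. Against QSCs, 9 rose (32.1%) and 10 fell (35.7%) in low cells, and 7 rose (25%) and 12 fell (42.9%) in high cells. *Sdc4*, a syndecan and MuSC marker, averaged 87.9 ± 3.71 CPM in low cells and 75.5 ± 6.97 in high cells, against 2952 ± 409 in QSCs. *Csf1* and *Ncam1* rose in both cultured groups (2.98 ± 0.173 and 2.31 ± 0.168, and 1.21 ± 0.144 and 2.35 ± 0.149). The study also named *Csf1* and *Notch3* from these libraries, so their values are not independent evidence.

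Of 8 tested related metalloproteases and ADAMTS-like proteins, 3 were higher (37.5%) and 0 lower in low cells than in high cells: *Bmp1*, a procollagen C-proteinase (0.82 ± 0.166, adjusted p = 0.00955), *Adamtsl4* (1.99 ± 0.331, adjusted p = 0.00404) and *Thsd4* (1.90 ± 0.327, adjusted p = 0.00459), which bind fibrillin and have no protease domain. All 3 lost the call without low replicates 1 or 3 or high replicates 1 or 3, when 0 of the list were called higher, and 1 was without high replicate 2. Against QSCs, *Adamtsl4* and *Thsd4* fell in both cultured groups, while *Adamtsl3* rose (1.88 ± 0.251, adjusted p = 7.61e-05, in low cells). In high cells *Bmp1* (-0.77 ± 0.166, adjusted p = 0.00189) and *Ece1*, which makes endothelin (-1.06 ± 0.232, adjusted p = 0.00214), fell.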

How the data were processed

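The deposited table holds, per the file headers, counts and TPM per gene and library. The authors made the counts from paired-end poly(A) libraries with CLC Genomics Workbench 20.0.3 against GRCm39, and computed TPM there; the annotation version and strand setting are not given in the sources used here. Not used were 18 other columns of per-library values, nor 24 holding fold changes and p-values from comparisons made by the authors.

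From the counts, 12614 genes without a 0 in any of the 9 libraries were tested with edgeR 4.0.16 (quasi-likelihood, TMM, 1 fit, Benjamini-Hochberg adjustment) in R 4.3.3. Alternatives used DESeq2 1.42.0, limma 3.58.1 on log2 TPM with pseudocounts of 1 and 0.1, other filters, scalings and groups, a replicate block, subtraction of the chemosensory rate, and leaving out each library. No 2 libraries were duplicates. Low and high libraries of the same number deviated together (r = 0.44, 0.426 and 0.177), which pairs them from the data, since the labels state no shared origin; QSCs did not pair (-0.0448 to 0.0113).

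The genes and lists were chosen with earlier results of these data known. Named genes were up to 12 called per comparison with the largest change at 5 CPM or more, up to 3 per role by mean CPM, all TIMPs, 6 further chosen genes, genes with a 0 and at least 30 counts in every library of a group, and the top 3 called genes of each pathway list. *Adam15*, *Adam19*, *Adam23*, *Adamts9*, *Adamts17* and *Mmp16* were named after their values were seen. *Adam29* was named for its promoter window only. Values of 2 further genes are not reported here. The script was tested on simulated data.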

Additional observations from a re-analysis of the deposited data

How the results depend on the processing

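In low against high cells, 5 genes were called higher, beside 155 of all genes tested. DESeq2, a fit of only the 2 groups and an adjusted p of 0.05 with no fold threshold each called 8. Over all genes these called 454, 335 and 461 higher. Limma on TPM with either pseudocount, the replicate block over all libraries and subtraction of the chemosensory rate each called 3. Over all genes, limma called 157 and 140, the block 147 and the subtraction 129. The block within the 2 groups called 11, beside 817 of all genes. Leaving out each library gave 1 to 6, beside 21 to 219 of all genes. None was called lower, beside 490 of all genes. That became 1 with only the 2 groups (649 of all genes) and 1 with the block within them (1089). It was 0 to 1 leaving out each library, beside 87 to 662. Against QSCs, where the numbers do not pair, either block called 12 higher for low and 11 for high cells, and 15 lower over all libraries, against 13 and 14 within 2 groups. Of all genes, 3208 and 3179 were lower over all libraries, against 2540 and 2631 within 2 groups. The 16 lower calls of low cells became 11 with limma on TPM or the chemosensory rate subtracted, 12 with only the 2 groups, and 11 to 16 leaving out each library, with 11 without low replicate 3. Over all genes, the 3344 lower calls became 1579 and 1616 with limma, 3026 with the subtraction and 2720 with only the 2 groups. They were 2800 to 3548 leaving out each library.

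Limma on TPM reversed *Timp2* in low cells against QSCs (0.74 with a pseudocount of 1, 0.743 with 0.1) and *Col4a1* in high cells (0.01199 and 0.01214). On TPM the all-gene median moved to 0.665 and 0.759 for low and 0.593 and 0.686 for high cells against QSCs, and 79.2% and 78.6%, and 76.2% and 75.5%, of calls were higher, beside 46% and 48.2%. Between low and high cells that share was 37.6% with DESeq2, 34.6% with upper-quartile factors, 34% with only the 2 groups and 42.9% with the block in them, beside 24%. Of the values of single genes, 1956 kept their call or lack of a call under the alternatives, 109 lost a call, 55 gained a call and 4 reversed. Leaving out a library, 1459 kept theirs, 118 lost a call and 16 gained a call. Of all 3717 values, 87 changed sign but stayed uncalled, and these are counted among those kept. Of the counts for pathway lists, 38 under the alternatives and 29 without a library moved by over 1.5 times. A search for the zinc-binding motif was not run.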
